A study of Mus musculus with 9 samples.

Results

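H3K27ac hub bins are 2 kb bins of the mouse genome that took part in 10 or more called H3K27ac interactions in untreated embryonic stem cells. They numbered 1108 of the 27304 bins that anchored at least 1 interaction, or 4.06%. Joining hub bins with less than 10 kb between them gave 722 hub regions. Hub bins were thus selected on the number of untreated interactions, so that number, the summed contacts and the coverage that go with it are described below and were not tested.

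The cells were E14, an established mouse embryonic stem cell line, of the genotype CTCF AID, in which CTCF carries a degron that auxin acts on. Every group, the untreated ones included, has this genotype. All were grown without serum on gelatin with the cytokine LIF and the inhibitors PD0325901 (of MEK) and CHIR99021 (of GSK3). MNase HiChIP ligates DNA ends that lie close together in nuclei cut with micrococcal nuclease, and then enriches them with an antibody. The groups were H3K27ac without IAA (2 libraries), H3K27ac after 12 h of the auxin IAA, which triggers breakdown of AID-tagged proteins (2 libraries), CTCF without IAA (2 libraries) and RAD21 without IAA (3 libraries).

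Each group is represented by 1 list of interactions pooled over its libraries, and the spread between libraries is therefore unknown for every value given here. Nothing below tests the treatment itself. For H3K27ac, 36274 interactions were called untreated and 28210 after IAA, and the authors' model implies totals of 12551236 and 14629323 contacts. The interval beside a share is a 95% Wilson interval, which covers counting error only and treats bins or interactions as independent. Whether 1 clone or several gave rise to the cells, and how much CTCF was left after IAA, is not given in the sources used here.

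H3K27ac is an acetylation of histone H3 found at active promoters and enhancers, and in embryonic stem cells it is dense over the large enhancer groups of the pluripotency genes. CTCF is a zinc-finger protein that binds a long directional motif. It halts cohesin, the ring complex that extrudes chromatin loops and of which RAD21 is a subunit, so that loops tend to run from a CTCF site in the direction its motif points to. An H3K27ac contact can also join enhancers and promoters that no CTCF site holds together.

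The sequences around 6 motif matches are shown because they lie in hub bins that the results below return to. All were read from the RefSeq copy of GRCm38, on the strand of the motif and from 5′ to 3′, with the match in capitals. The first 3 are matches to the CTCF core, a motif of 14 letters searched with at most 1 mismatch. They lie in the hub bin of the Bcl2l1 start site (chr2:152830676-152830749, minus strand, 40 bases upstream of the nearest Bcl2l1 start), in that of the Tcf7l1 start site (chr6:72789592-72789665, minus strand, 368 bases upstream of it) and in an intergenic hub bin past the 5′ end of Rbfox2 (chr15:77358824-77358897, minus strand).
Bcl2l1 hub bin: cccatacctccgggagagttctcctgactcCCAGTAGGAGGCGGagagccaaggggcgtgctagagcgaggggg
Tcf7l1 hub bin: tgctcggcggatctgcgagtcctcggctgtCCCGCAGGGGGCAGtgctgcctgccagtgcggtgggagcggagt
Rbfox2 intergenic hub bin: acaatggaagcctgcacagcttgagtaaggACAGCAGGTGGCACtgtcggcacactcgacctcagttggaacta

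The other 3 are matches to motifs of pluripotency factors, searched without mismatches on both strands. The composite motif of Oct4 and Sox2, TTGTNATGNAAA, matched in the hub bin of the Nanog start site (chr6:122707384-122707455, minus strand, 75 bases upstream of the nearest Nanog start). The motif of Esrrb, TCAAGGTCA, matched in the intergenic hub bin next to Tgif1 (chr17:70828454-70828522, minus strand) and in the bin of the Tfcp2l1 start site (chr1:118627429-118627497, minus strand, 487 bases upstream of it).
Nanog hub bin: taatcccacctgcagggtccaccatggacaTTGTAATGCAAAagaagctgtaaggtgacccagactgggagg
Tgif1 intergenic hub bin: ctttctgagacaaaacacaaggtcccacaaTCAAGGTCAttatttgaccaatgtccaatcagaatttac
Tfcp2l1 hub bin: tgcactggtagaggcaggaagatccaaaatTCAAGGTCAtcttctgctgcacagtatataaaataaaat

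Over all hub bins, 11.6% held the Esrrb letters (interval 9.89 to 13.7), against 8.21% of the other anchor bins of the same length (7.88 to 8.55). Among bins with a coverage at or above the hub median, the share was 12.6% of hub bins (10.1 to 15.7) and 7.10% of the others (5.12 to 9.76). The Oct4-Sox2 letters were in 1.62% of hub bins and 1.103% of the others, and the intervals overlapped (1.03 to 2.55 and 0.984 to 1.24). The Klf letters, GGGTGTGGC, were in 7.04% and 6.005%, also with overlapping intervals (5.68 to 8.70 and 5.72 to 6.30). A CTCF core match was in 11.01% and 12.02%. A match is a run of letters, not a measured binding site.

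The number of interactions fell off steeply from bin to bin. Of the anchor bins, 13952 (51.1%) had a single untreated interaction. The hub bins had a median of 13, with quartiles of 11 and 16 and a highest value of 42. There were 141 bins with at least 20 interactions and 17 with at least 30. The threshold cut through a continuous distribution: the 263 bins with 9 interactions had a median of 161 summed contacts and a coverage of 4371, and the 231 bins with 10 had 188 and 4492.

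Coverage, a whole number that the authors give for each bin without a stated unit, ran with the number of interactions. Its median was 5894.5 at hub bins (range 1130 to 22828) and 1436 at the other anchor bins. Of the hub bins, 888 (80.1%) lay in the top 10% of anchor bins by coverage, which began at 4045. Spearman's rho between interactions and coverage was 0.63 over 27304 anchor bins and 0.46 over the 1108 hub bins, where both values come from the same pooled libraries. Because coverage and the hub rule go together, a comparison group of 479 other anchor bins with coverage at or above the hub median (median 6792) is given beside the results on annotation. Those 479 deep bins had a median of 6 interactions. Their like-for-like counterpart is the 554 hub bins at or above the same coverage, whose median was 7735; this set was added after seeing the data.

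**Figure D1:**
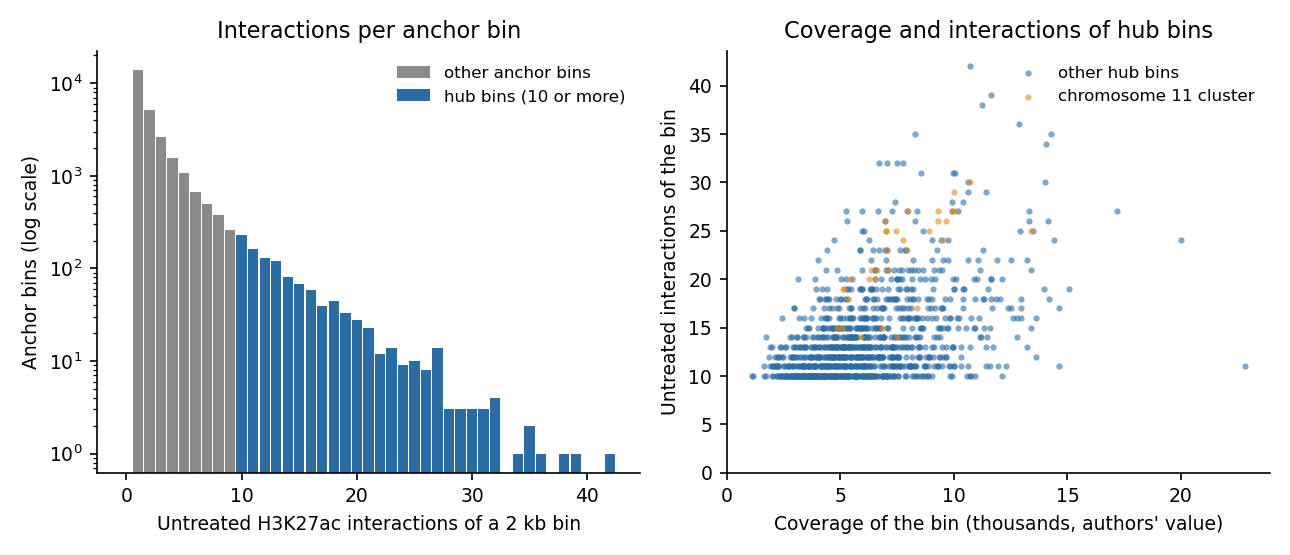
Left, number of anchor bins (log scale) by the number of untreated H3K27ac interactions of the bin, with hub bins in blue. Right, each point is 1 hub bin, plotted by the coverage the authors give (axis in kilo-units) and its untreated interactions, with the 33 bins of the chromosome 11 cluster in orange. The bin with 42 interactions has a coverage of 10707, and the bin with the highest coverage, 22828, is far from the top in interactions.

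Of the untreated interactions, 13402 (36.9%, interval 36.5 to 37.4) touched a hub bin, and these held 42.9% of all listed contacts. Hub interactions spanned a median of 34 kb, against 18 kb for the other interactions. Their median of 15 contacts compared with 13. Of the hub interactions, 2414 (18.01%) joined 2 hub bins to each other. The summed contacts of a hub bin had a median of 257 and ran from 100 to 1149.

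A hub bin's partners were often neighbours of each other. With touching partner bins merged into 1, the median number of partners was 7, with a range of 1 to 21. The partners filled a window with a median width of 182 kb (quartiles 108 and 340.5), and the median distance to a partner was 33 kb. The strongest partner took a median of 17.2% of a bin's contacts. In 984 hub bins (88.8%) partners lay on both sides, and in 440 (39.7%) at least 80% of them lay on 1 side. The median hub bin had 3 partners that were hub bins and 2 with a protein-coding start site, 162 hub bins (14.6%) had no such start site among their partners, and 190 (17.1%) had 5 or more.

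Hub regions were mostly short. A single bin made up 549 of the 722, a pair of bins 97, and 3 to 9 bins 74. The remaining 2 had at least 10 bins. They were spread unevenly over chromosomes: hub bins made up 6.34% of anchor bins on chromosome 17 and 6.11% on chromosome 19, but 3 of 384 (0.781%) on the X chromosome.

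The hub region with most bins stands apart and touches several results. It covers chr11:3132001-3198000, over the gene Sfi1, which encodes a centrosomal protein, and holds 33 hub bins with 14 to 30 untreated interactions each, nearly all of them with one another. Of its 32-base words, a median of 66.3% occur more than once in GRCm38 (range 1.12% to 91.5% over its bins), against a median of 2.31% over all hub bins. It holds all 26 hub bins in which more than 50% of words are repeated. None of its bins had a CTCF-list or RAD21-list anchor. How reads with several matches were placed is not given in the sources used here, and its part in the results was not tested, so results are also given without this region, called the chromosome 11 cluster below. That choice was made after seeing the data.

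Protein-coding start sites of the GENCODE M21 basic annotation lay in 338 hub bins, or 30.5% (interval 27.9 to 33.3), against 24.1% of the 26196 other anchor bins (23.6 to 24.7). The deep bins had a higher share, 65.6% (61.2 to 69.7), against 37.5% (33.6 to 41.7) of the 554 deep hub bins. No start site of any gene lay within 1 bin of 614 hub bins (55.4%, interval 52.5 to 58.3), and 242 of those were inside a protein-coding gene. The corresponding share was 52.8% of other anchor bins and 17.7% of the deep bins (14.6 to 21.4). Among the 554 deep hub bins it was 50.5% (46.4 to 54.7), so above that coverage hub bins were more often distal than the other bins, with separate intervals. Without the chromosome 11 cluster, 31.3% of hub bins held a coding start site. With 1 bin per region, the one with most interactions, the share was 41.7%.

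CTCF-list anchors, which are 1 kb bins of the CTCF interaction list assigned to the 2 kb bins, lay in 436 hub bins (39.4%, interval 36.5 to 42.3), against 24.8% of the other anchor bins (24.3 to 25.4) and 35.9% of the deep bins (31.7 to 40.3). RAD21-list anchors lay in 554 hub bins (50%, interval 47.1 to 52.9), against 20.2% (19.7 to 20.7) and 32.6% (28.5 to 36.9). Among the 554 deep hub bins, RAD21 anchors were in 46.8% (42.6 to 50.9), with an interval separate from that of the other deep bins, and CTCF anchors in 38.8% (34.8 to 42.9), with an overlapping one. Of the hub bins, 330 (29.8%) had both anchors, 224 (20.2%) had a RAD21 anchor without a CTCF anchor, 106 (9.57%) had CTCF alone, and 448 (40.4%) had neither. RAD21 without CTCF occurred in 5.18% of other anchor bins, 12.1% of deep bins and 20.04% of the deep hub bins. Leaving out the chromosome 11 cluster moved the CTCF share to 40.6% and the RAD21 share to 51.5%.

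**Figure D2:**
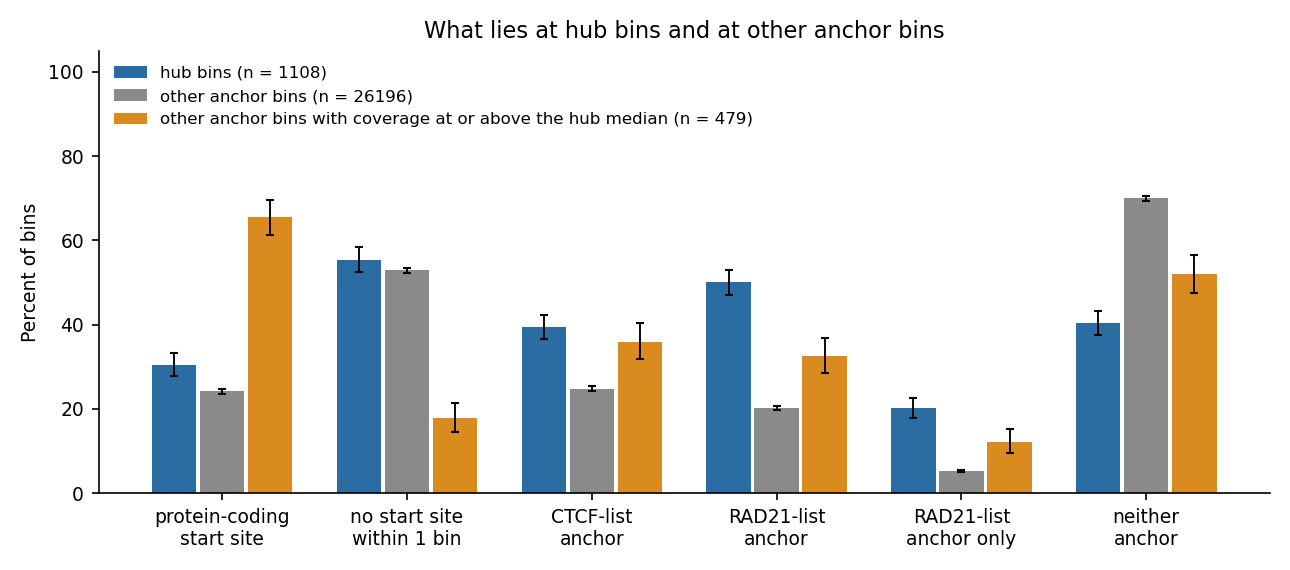
Percent of bins that hold each feature, for hub bins (blue), all other anchor bins (grey) and other anchor bins with coverage at or above the hub median (orange), with 95% Wilson intervals as error bars. Hub bins sit at 50% for RAD21-list anchors against 32.6% of the deep bins, and at 30.5% for protein-coding start sites against 65.6%.

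Sharing an anchor is not the same as sharing an interaction. Only 680 hub interactions (5.07%, interval 4.72 to 5.46) joined the same pair of bins as a CTCF interaction, against 6.91% of the other H3K27ac interactions. For RAD21 the shares were 5.74% and 5.65%, with overlapping intervals.

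Of 39 listed pluripotency factors and markers, 10 had a start site in a hub bin: Esrrb, Klf2, Nanog, Phc1, Pou5f1, Sox2, Tbx3, Tfcp2l1, Trim28 and Zfp42. That is 25.6% of the list, while over all 21840 protein-coding genes the share was 1.70% (372 genes). The base differed as well: 82.1% of the list, but 31.3% of all protein-coding genes, had a start site in any anchor bin. Another 14 of the 39 were reached only as partners, and in all 24 (61.5%) had a start site in a partner bin of a hub, against 7.50% of all genes. These genes include Klf4, Dppa3, Gdf3, Tet2 and Sall1. The list was drawn up with earlier results of these data known, so the counts describe the hubs and were not tested.

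The housekeeping list gave shares close to these. Of its 24 genes, 6 (25%) had a start site in a hub bin and 12 (50%) in a partner bin of one, and 91.7% had a start site in any anchor bin. Of 32 genes of the signalling pathways of stem cell culture, Etv5, Smad7, Socs3 and Tcf7l1 (12.5%) had a start site in a hub bin. Among 24 chromatin and cohesin genes it was 1 (4.17%), although 87.5% of that list anchored an interaction. That gene was Eed, a subunit of the Polycomb complex PRC2. Of 80 ribosomal protein genes it was 8, while 92.5% anchored an interaction. Of 15 fibroblast markers, 15 neural markers and 21 markers of endoderm and mesoderm, 0 had a start site in a hub bin and 2 of each list anchored any interaction. The mesoderm gene Tbx6 was the 1 listed differentiation marker whose start site was a partner of a hub bin.

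The 10 hub regions with the highest counts were not led by promoters. In 8 of them the top bin was intergenic, and in the remaining 2 it lay over exons, of Gdf3 and of Vwf. The leading bin, chr1:36060001-36062000, lies 7.40 kb from the start of Hs6st1, which encodes a heparan sulfate sulfotransferase. It had 42 interactions with 918 contacts, 40 of them to the left, over a window of 838 kb. After IAA it had 43 interactions and 958 contacts, a scaled log2 change of 0.09 (counting interval -0.04 to 0.22). Contacts were scaled here and below by the totals over all interactions in both lists. With the model totals as the scale, every log2 change is lower by 0.25, so small changes can turn direction. Summed contacts run over the interactions called in each list, and a pair missing from a list adds nothing to its sum. The counting intervals of these sums are descriptive. The next, chr12:86916001-86918000, had 39 interactions before and 36 after IAA. Its strongest promoter partners were Irf2bpl, with 28 contacts and 27 after IAA, and Cipc, with 24 and 39.

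The intergenic bin next to Tgif1, chr17:70828001-70830000, whose Esrrb match is printed above, had 38 interactions before and 39 after IAA, with 863 and 832 contacts. Tgif1 encodes a homeodomain repressor of TGF-beta signalling. The bin reached 3 start-site bins of Tgif1 that were themselves hub bins, with 52, 35 and 32 untreated contacts and 37, 27 and 30 after IAA. It also reached a start-site bin of Myl12b with 12 contacts and one shared by Myl12a and Myl12b with 11; both genes encode myosin light chains. Its partners were divided between 18 on the left and 20 on the right. Its scaled log2 change in contacts was -0.02 (-0.16 to 0.12). That of the bin between Irf2bpl and Cipc was -0.21 (-0.36 to -0.05).

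On chromosome 6, hub bins around Nanog, the homeobox factor that sustains the pluripotent state, formed a set joined to one another. The bin 4.49 kb upstream of the Nanog start, chr6:122702001-122704000, had the most summed contacts of any hub bin, 1149, from 36 interactions. A bin 40 kb to its left, chr6:122662001-122664000, had 35, and so did chr6:122608001-122610000, in an exon of Gdf3, which encodes a TGF-beta family ligand. The Gdf3 bin reached 9 partner bins with coding start sites. Its partner genes included Apobec1, Dppa3, Nanog, Necap1, Phc1, Rimklb and Slc2a3. Phc1, a subunit of a Polycomb complex, starts 268 kb from the Gdf3 bin and had 49 contacts with it.

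After IAA the 3 bins differed. The bin chr6:122662001-122664000 went from 35 interactions to 27 and from 691 contacts to 623, a scaled log2 change of -0.12 (-0.28 to 0.04). The Gdf3 bin had 35 interactions and 639 contacts before IAA and 46 interactions and 1023 contacts after, a scaled log2 change of 0.71 (0.56 to 0.85). Its contacts with the bin upstream of Nanog went from 54 to 116, with the Nanog start-site bin from 27 to 50, and with chr6:122662001-122664000 from 39 to 82. The contact with Phc1 went from 49 to 38. The bin upstream of Nanog went from 36 interactions to 44 and from 1149 contacts to 1224. Its scaled log2 change was 0.12 (0.0030 to 0.24), which turns negative with the model totals, where changes are 0.25 lower. Contacts with its strongest partner, 62 kb to the right, went from 111 to 76. The Nanog start-site bin had 21 interactions before and 18 after IAA, with 397 and 326 contacts.

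**Figure D3:**
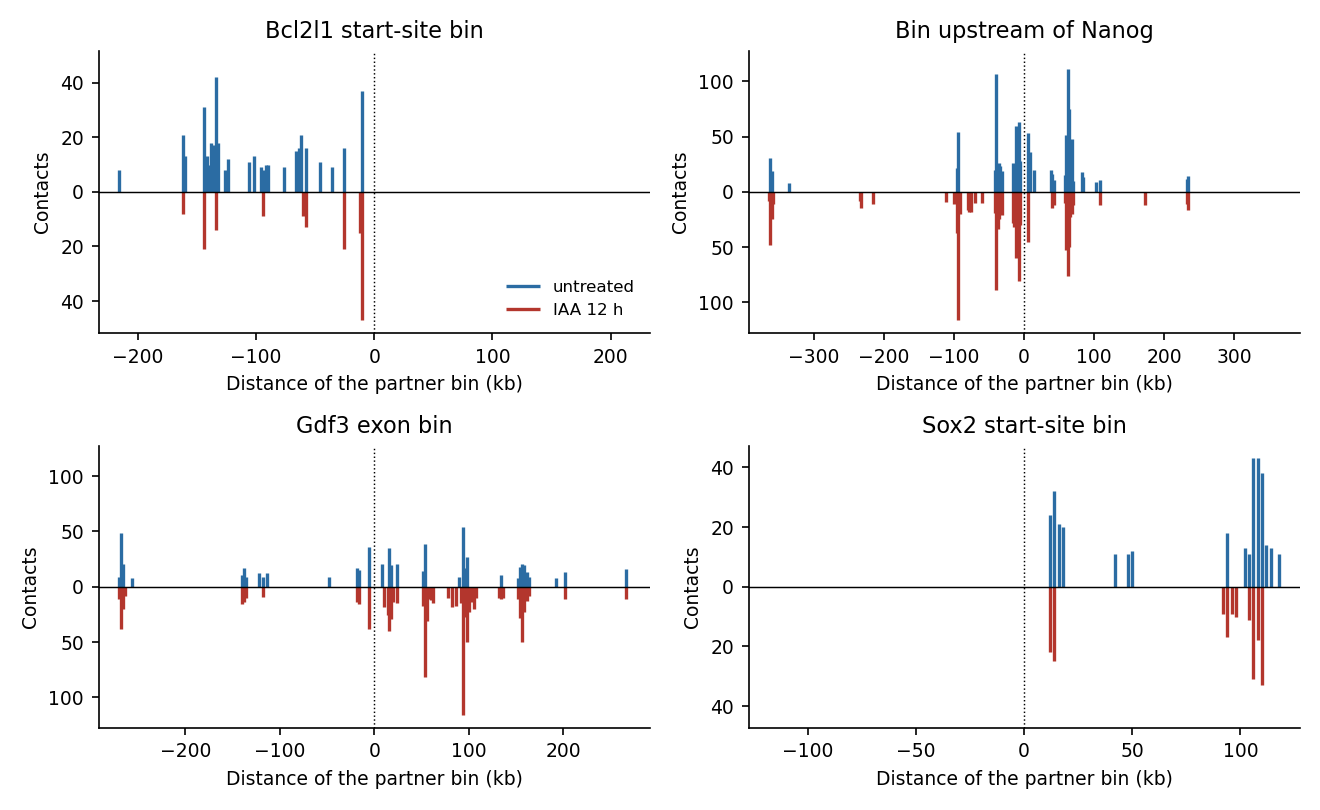
Every called partner of 4 hub bins by its distance (kb, negative to the left) and contacts, untreated upward in blue and after 12 h of IAA downward in red; 1 further IAA partner of the bin upstream of Nanog, at 994 kb with 8 contacts, lies beyond the axis. The Bcl2l1 bin had partners on the left alone and 9 of them after IAA against 27 before, while the Gdf3 bin had 46 against 35.

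The remaining 4 top bins had fewer interactions after IAA. The bin chr15:77354001-77356000, between Rbfox2 (a splicing regulator) and the Apol genes, went from 34 interactions to 25, and from 867 contacts to 689. The Vwf exon bin, chr6:125592001-125594000, reached the start site of Cd9, a tetraspanin of the cell surface, and 12 hub bins, 2 of them in an intron of Cd9. It went from 32 to 24 interactions and from 566 to 344 contacts (scaled log2 change -0.69, interval -0.89 to -0.49). The bin chr8:88950001-88952000 had all its 32 partners on the right, towards Sall1, a zinc-finger factor, and went to 24. The bin chr12:86800001-86802000 also had 32, all on the right, and went to 20.

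The regions with most hub bins lay over loci of several kinds. After the chromosome 11 cluster, the region with most bins was chr19:5794001-5826000, with 10, over the noncoding RNA gene Malat1. A region of 9 hub bins, chr6:125422001-125456000, lies between Plekhg6 and Cd9. Another 9 covered 36 kb of Esrrb, an orphan nuclear receptor of the pluripotency network. Further regions of 9 covered Zfp57, a zinc-finger protein that protects imprints, and the promoters of Fbxo36 and Trip12. There were 4 regions of 8 bins. They were the region past Rbfox2, chr12:86794001-86834000 without a start site, chr15:25752001-25776000 over Myo10, which encodes a myosin motor, and 1 on chromosome 7. With each interaction counted once per region, contacts went from 3369 to 2024, from 1823 to 924 and from 2213 to 1606 in the first 3. In the larger regions, they went from 3033 to 2294 at Malat1, from 2735 to 2092 near Cd9 and from 2557 to 1778 at Esrrb. At Zfp57 they were 3763 and 3532, and at Fbxo36 and Trip12 they rose from 2342 to 2666. The chromosome 7 region, over 30 kb, held the start sites of the miR-290 to miR-295 cluster, the main microRNA cluster of mouse embryonic stem cells. Its bins had 10 to 17 interactions before IAA and 7 to 19 after, and its contacts, counted in the same way, were 3151 and 2814.

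Of the 29 hub bins with the start site of a listed gene, the 12 with most interactions were those of Ncl, Tbx3, Nanog, Phc1, Hsp90ab1, Smad7, Sox2, Rpl4, Tcf7l1, Esrrb, Tuba1b and Rpl19, with 15 to 22. The Sox2 bin, chr3:34650001-34652000, had all its 16 partners on the right. The strongest lay 106 and 108 kb away, with 43 contacts each and 31 and 18 after IAA. Its interactions went from 16 to 10 and its contacts from 335 to 185, a scaled log2 change of -0.83 (-1.09 to -0.56), and it had no CTCF-list or RAD21-list anchor. The Esrrb start-site bin went from 15 interactions to 9 and from 451 contacts to 250 (-0.82, interval -1.05 to -0.60), and all 6 of its hub partners lay inside Esrrb.

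Tbx3, a T-box factor, went from 21 interactions to 14. Fewer interactions were also seen at the tubulin gene Tuba1b (15 to 8, scaled log2 change in contacts -1.10) and at Rpl4, a ribosomal protein gene (16 to 9, -0.64). The same held at Hsp90ab1, a chaperone gene (20 to 15, -0.24). Of their untreated interactions 6, 6 and 10 were called again, and the changes in summed contacts were not tested. The bins of Ncl (22 to 19), which encodes nucleolin, Phc1 (21 to 19), Smad7 (19 to 19) and Rpl19 (15 to 14) changed little in number. The same bin pair was called again for 18, 18, 11 and 4 of their untreated interactions, in that order. Their scaled log2 changes in contacts were -0.07, 0.19, -0.07 and -0.06, with counting intervals that included 0 on this scale. The model totals would lower each change by 0.25, so these intervals do not show that contacts were unchanged. The Tcf7l1 bin went from 16 interactions to 6 and from 212 contacts to 77, a scaled log2 change of -1.43 (-1.83 to -1.05). Its coverage was 9030 and 9037, a log2 change of -0.20 relative to all anchor bins. Tcf7l1 encodes a repressor of Wnt target genes. Its bin holds the CTCF core match printed above, 15 CTCF-list interactions and 12 RAD21-list interactions, and 15 of its 16 partners lay on the left. Socs3, which encodes the feedback inhibitor of LIF signalling and is named here after its values were seen, went from 13 interactions to 3 with 6 CTCF-list interactions in its bin. Tfcp2l1, a pluripotency transcription factor also named after its values were seen, had 10 interactions and 286 contacts in both lists, and no CTCF-list or RAD21-list anchor.

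Between the untreated list and the IAA list, most hub bins had fewer interactions. The bins were chosen by their untreated number, which favours a fall in any second list, so this direction is a description. The median ratio of interactions, IAA over untreated, was 0.767 (quartiles 0.6 and 0.944), and 0.75 without the chromosome 11 cluster. The whole IAA list was 0.778 times as long as the untreated list. There were 840 hub bins with fewer, 173 with more and 95 with equal numbers. The summed contacts had a median scaled log2 change of -0.33. When only bin pairs in both lists were summed it was -0.06. Coverage had a median log2 change of -0.07 relative to the shift of all anchor bins in both lists.

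The values differ when bins are chosen from the IAA list. Of the untreated hub bins, 614 (55.4%) had 10 or more interactions after IAA, and these were 87.8% of the 699 bins that reached 10 in the IAA list. At those 699 bins the median ratio was 1.00, and 258 of them (36.9%) had more interactions after IAA. No hub bin was without an interaction after IAA, and 13 had fewer than 3.

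The chromosome 11 cluster went the other way as a block. All of its 33 bins had more interactions after IAA, the contacts of its interactions, each counted once, were 9450 and 13503, and the median scaled log2 change of its bins was 0.50. Coverage of its bins had a median log2 change of 0.20 relative to all anchor bins.

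**Figure D4:**
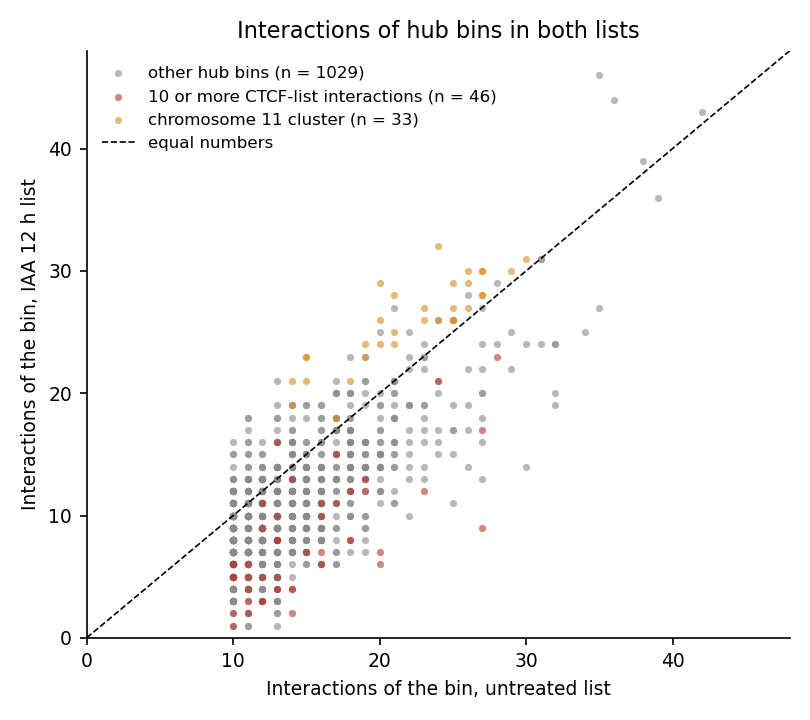
Each point is 1 hub bin, with its interactions in the untreated list on the horizontal axis and in the IAA list on the vertical axis; the dashed line marks equal numbers. Bins with 10 or more CTCF-list interactions (red) lie below the line with 1 exception, and the 33 bins of the chromosome 11 cluster (orange) lie above it.

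Interactions at hub bins were called again more often than others. The same pair of bins was in the IAA list for 7262 of 13402 hub interactions (54.2%, interval 53.3 to 55.0), against 42.9% of all untreated interactions and 36.2% of those without a hub bin (35.6 to 36.9). Without the chromosome 11 cluster the hub share was 53.1%. Contact counts differ between these classes, so they were also compared within ranges of contacts. The hub and other shares were 21.7% and 12.0% at 6 to 9 contacts, 38.5% and 27.2% at 10 to 14, 62.6% and 50.8% at 15 to 24, and 86.5% and 78.3% at 25 or more. The Wilson intervals of the pair were separate in each range, but they treat interactions as independent. Interactions of a hub bin share an anchor. Coverage was not matched, and these hub shares include the chromosome 11 cluster.

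Interactions that joined 2 hub bins were called again in 80.4% of cases, and in 78.0% without the chromosome 11 cluster (interval 76.1 to 79.7), against 48.4% for those with 1 hub bin (47.5 to 49.4). Within ranges of contacts and without the cluster, the shares for interactions between hub bins were 36.3%, 61.1%, 76.6% and 96.0% from the lowest range to the highest. Each was above the share of all hub interactions in the same range.

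The ratio of interactions was lower in hub bins with more CTCF-list interactions. The 639 hub bins without a CTCF-list anchor and outside the chromosome 11 cluster had a median ratio of interactions of 0.786. The ratio was 0.763 at the 312 bins with 1 to 4 CTCF-list interactions, 0.667 at the 78 with 5 to 9 and 0.483 at the 46 with 10 or more. In that last class 45 of 46 bins had fewer interactions after IAA. The median scaled log2 changes in summed contacts over these classes were -0.30, -0.35, -0.48 and -0.97. When only bin pairs in both lists were summed, they were smaller, at -0.06, -0.07, -0.12 and -0.21. The shares of their interactions called again were 58.5%, 56.9%, 48.7% and 40.9%. The untreated number of interactions was alike, with class medians of 12 to 13.5.

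Coverage differed between the CTCF classes too, without a steady order. It had a median of 5800 at bins without a CTCF-list anchor outside the chromosome 11 cluster, 6235 at bins with 1 to 4 CTCF-list interactions, 5146 with 5 to 9 and 3441 with 10 or more, so bins were also split at the hub median of coverage. Below it, the median ratio was 0.737 without a CTCF-list interaction (327 bins), 0.7 with 1 to 4 (131 bins) and 0.542 with 5 or more (90 bins). At or above it, the values were 0.821 (312 bins), 0.786 (181 bins) and 0.732 (34 bins). The order of the 3 classes by this ratio was the same on both sides of the split, and the gap was smaller among the deeper bins. The order by summed contacts was not. The median scaled log2 changes were -0.32, -0.43 and -0.77 below the hub median of coverage and -0.29, -0.26 and -0.40 at or above it. Over bin pairs in both lists alone, the order was the same on both sides. These medians were -0.030, -0.050 and -0.179 below and -0.077, -0.080 and -0.103 at or above it. The part of coverage in the difference between classes was not tested further. By chromosome, hub bins with a CTCF-list anchor had the lower median ratio on 14 of the 18 chromosomes with at least 5 bins of each kind.

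**Figure D5:**
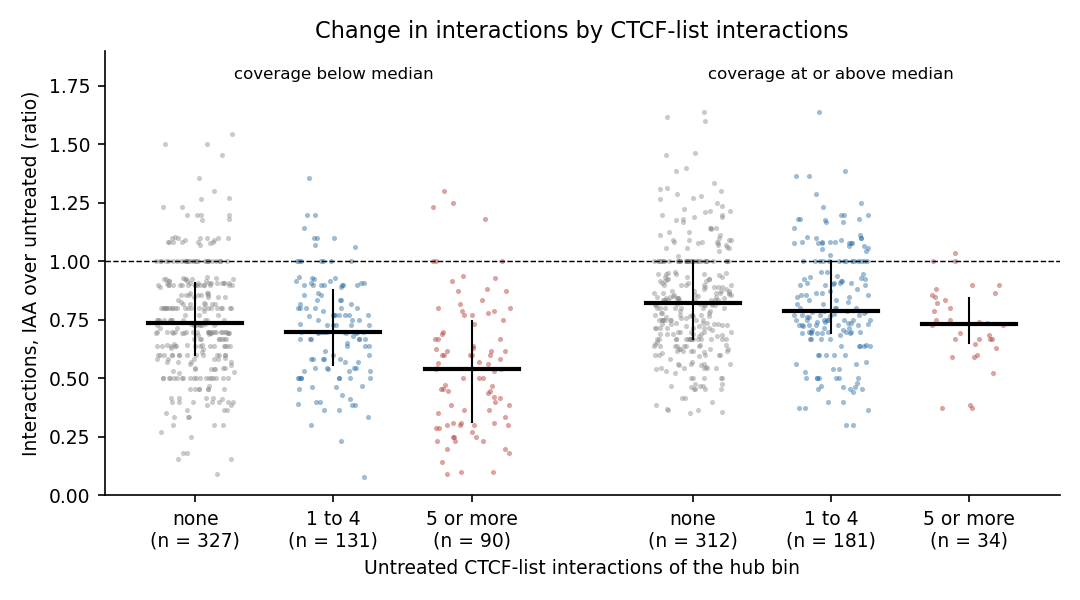
Ratio of a hub bin's interactions after IAA to those untreated, by the number of untreated CTCF-list interactions of the bin, for bins below (left) and at or above (right) the hub median of coverage, without the chromosome 11 cluster. Points are bins, thick lines medians and thin lines quartiles; the medians are 0.737, 0.7 and 0.542 on the left and 0.821, 0.786 and 0.732 on the right.

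The ratio at bins with RAD21 alone was close to that at bins with neither. The 224 hub bins with a RAD21-list anchor only had a median ratio of 0.8 and 60.3% of their interactions called again. With neither anchor and outside the chromosome 11 cluster the values were 0.769 and 57.4%, and with both anchors 0.727 and 53.3%. Among hub interactions themselves, those on the bin pair of a CTCF interaction were called again in 44.7% of cases (41.0 to 48.5) and the rest in 54.7% (53.8 to 55.6).

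Of the 3 hub bins with most CTCF-list interactions, the first is at Bcl2l1. The Bcl2l1 start-site bin, chr2:152830001-152832000, had 44 CTCF-list and 28 RAD21-list interactions. Bcl2l1 encodes BCL-XL, an inhibitor of apoptosis. Its bin had 27 H3K27ac interactions before IAA and 9 after, of which 7 were shared. Contacts of the bin went from 422 to 157 (scaled log2 change -1.40, interval -1.67 to -1.13). Its coverage was 5234 and 4950, a log2 change of -0.28 relative to all anchor bins. All 27 partners lay on the left, the direction in which its CTCF core match on the minus strand points. Contacts with the start site of Mcts2 went from 31 to 21 and with that of H13 from 21 to 8. Those with Cox4i2, 9 before IAA, were not in the IAA list. Contacts with Id1, a target of BMP signalling, were 8 and 9. The nearest hub partner, inside Bcl2l1 and 10 kb away, went from 37 to 47.

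The other 2 lie 22 kb apart in the region past Rbfox2. The bin chr15:77336001-77338000 had 27 CTCF-list interactions and CTCF core matches on both strands, with 15 partners on the left and 13 on the right. It went from 28 H3K27ac interactions to 23 and from 753 contacts to 486. The bin chr15:77358001-77360000, with 26 CTCF-list interactions and the match printed above on the minus strand, had 21 of 23 partners on the left. It went from 23 interactions to 12 and from 498 contacts to 252. The interaction between these bins, which was also in the CTCF and RAD21 lists, went from 82 contacts to 34.

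At hub bins with 5 or more CTCF-list interactions, most interactions lay on the side to which the CTCF core points. In 91 hub bins with a CTCF-list anchor and core matches on 1 strand only, 823 of 1269 interactions (64.9%) lay on the side the motif points to, and 57 of these bins had more partners on that side against 31 with fewer. At the 48 of them with 5 or more CTCF-list interactions the share was 75.3% (510 of 677), with 37 bins against 10. Outside these 48, about as many of the 91 bins had fewer partners on that side as had more. At 25 hub bins with a core match but no CTCF-list anchor the share was 54.8% (212 of 387). After IAA the shares were 61.3%, 70.4% and 59.3%. The number of interactions after IAA was also set against the untreated number on each side. In the 91 bins it was 0.560 times on the motif side and 0.652 times on the other side. In the 48 it was 0.461 and 0.593 times. The 48 are part of the 91, and in the rest of the 91 the order was the opposite. The order was also the opposite in the 25 bins without a CTCF-list anchor, with 0.811 times on the motif side and 0.674 times on the other. No test was run on this pattern, since interactions of a bin share their anchor.

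The largest falls and rises in summed contacts, among bins with at least 100 contacts over both lists, were at single loci. The falls were led by the start-site bin of Deptor, an inhibitor of mTOR, which went from 10 interactions and 145 contacts to 1 interaction and 9 contacts. Next were chr4:129276001-129278000, with 112 and 9 contacts, and the Cdipt start-site bin with 145 and 12. The Malat1 bin chr19:5794001-5796000 with 189 and 16 and chr1:133340001-133342000 with 201 and 26 came after. CTCF-list interactions numbered 7 at Deptor, 15 at the chromosome 4 bin, 2 at Cdipt, and 0 at the Malat1 bin and the chromosome 1 bin. Cdipt, which encodes phosphatidylinositol synthase, had reached 10 bins with coding start sites, Maz, Taok2 and Aldoa among them. Coverage differed less than contacts at these bins. It was 5417 and 4684 at Cdipt, 3367 and 2718 at Deptor, and 1163 and 1329 at the chromosome 4 bin. Relative to the median log2 shift of 0.20 over all anchor bins in both lists, coverage changed by -0.51 at Deptor, -0.44 at the chromosome 1 bin, -0.41 at Cdipt, -0.28 at the Malat1 bin and -0.0065 at the chromosome 4 bin. The part of coverage in these falls was not tested.

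The rises were led by the start-site bin of Eif2b5, a subunit of a translation initiation factor, which went from 13 interactions to 21 and from 179 contacts to 410, a scaled log2 change of 1.22 (0.97 to 1.49), while its coverage was 6288 and 9858, a log2 change of 0.45 relative to all anchor bins. The next 4 were bins of the chromosome 11 cluster, with scaled log2 changes of 0.93 to 1.05 in contacts, 0.16 to 0.30 in coverage, and 18.3% to 75.1% of their words repeated in the genome.

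Contacts of single interactions were compared with an exact two-sided binomial test, adjusted by the Benjamini-Hochberg method over the 15551 interactions in both lists. The test compares 2 pooled libraries and not the conditions. An interaction missing from either list was not tested, so the counts of higher and lower below leave out lost and gained calls. Of the 7262 hub interactions, 12 (0.165%) had an adjusted p-value under 0.05, 8 of them higher and 4 lower after IAA, against 0.135% of all 15551, a share near that of the hub interactions. Without adjustment, 434 (5.98%) had a p under 0.05. With the model totals of the 2 lists as the scale, which shifts every log2 change by 0.25 downward, 44 were called, 4 higher and 40 lower, and 8 of the 12 were among them.

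Lower after IAA were an interaction between an intron of Dusp27 and an exon of Gpa33 (64 to 15 contacts, scaled log2 change -2.06, exact test adjusted p = 8.05e-05), the Senp3 start site with a hub bin 32 kb away (59 to 18, adjusted p = 0.00516) and 2 interactions within the Rbfox2 region, which went from 63 contacts to 22 and from 82 to 34. Higher after IAA were the Gdf3 bin with the bin upstream of Nanog (54 to 116, scaled log2 change 1.13, exact test adjusted p = 0.002) and with chr6:122662001-122664000 (39 to 82, adjusted p = 0.043). Contacts of a hub bin left of Eif2b5 rose with the Eif2b5 start-site bin 20 kb away (33 to 78, exact test adjusted p = 0.0111) and with the bin beside it (25 to 76, adjusted p = 0.000546).

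The remaining 4 rises were 2 interactions of a hub bin near Olfr221, with the start sites of Gm49256 (23 to 72) and of Zfp219 (10 to 39), 1 inside Fbxo36 (17 to 55) and 1 inside the chromosome 11 cluster (31 to 71). Relative to the shift of all anchor bins, both ends gained coverage in 7 of the 8 interactions that rose. The exception was the pair of the Gdf3 bin (0.043) and the bin upstream of Nanog (-0.0098). For the Eif2b5 pair the unscaled coverage went from 7438 to 10501 and from 6288 to 9858. The part of coverage in these rises was not tested.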

How the data were processed

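The authors deposited 1 list of interactions per group, pooled over libraries per the labels. Per the file headers, each gives a contact count for a pair of bins, a whole-number coverage for each bin, a peak flag, an expected contact score and a model probability (a fraction) after bias correction, and a q-value, all 0.05 or less. The bins were 2 kb for H3K27ac and 1 kb for CTCF and RAD21. Trim Galore, BWA, MACS2, deepTools and the build mm10 (GRCm38) are named in the submitters' processing notes; versions, settings and filters are not given in the sources used here.

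Interactions per bin were counted and hub bins joined in Python 3.11.15 with pandas 2.3.3, NumPy 2.4.6, SciPy 1.17.1 and numba 0.67.0, and plots were drawn with matplotlib 3.10.9. Start sites came from GENCODE M21 basic. A partner promoter is a partner bin with a protein-coding start site. Contacts were scaled by the summed contacts of the 15551 interactions in both lists. Each of these interactions was compared by the exact binomial test (two-sided), with p-values adjusted by Benjamini-Hochberg over all of them. Model totals are the median of the expected score over the model fraction in each list.

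Bins were named by rule: the top bins of the 10 regions with most interactions, the 12 listed-gene start-site bins with most interactions, the 5 largest rises and 5 largest falls in scaled contacts, the 3 regions with most bins, the 5 leading bins without a start site within 1 bin, the 3 bins with most CTCF-list interactions, and the interactions past the test's threshold. Other names were chosen after their values were seen. The members and gene lists were chosen with earlier results of these data known. Alternatives changed the hub threshold, the q-value and contact minimums, distances, list length, scaling, choice of bins, coverage and the chromosome 11 cluster. Contact counts without replicates limit precision to counting error.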

Additional observations from a re-analysis of the deposited data

How the results depend on the processing

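Over 10 results, 50 alternatives were computed, of which 16 stayed within the limits set for no change, 33 moved and 1 reversed. The 1108 hub bins became 1752 at 8 or more interactions, 384 at 15 or more, 677 at a q-value of 0.01 or less and 257 when touching partners were merged. The share with a coding start site, 30.5%, was 35.02% for any biotype, 36.4% within 1 bin, 27.9% at 15 or more interactions, 41.7% with 1 bin per region and 37.5% at or above the hub median of coverage. The CTCF share, 39.4%, was 53.5% within 1 bin, 34.8% at a q-value of 0.01 or less and 46.1% with 1 bin per region. The RAD21 share was 60.5%, 40.2% and 54.2% in the same order, with 54.4% at 15 or more interactions and 46.8% at or above that coverage. The share called again, 54.2%, was 76.7% with anchors free by 1 bin, 55.9% at a q-value of 0.01 or less, 59.0% for interactions with 10 or more contacts, 60.6% with both lists held to 28210 interactions, 58.3% at 15 or more interactions and 53.1% without the chromosome 11 cluster.

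The ratio of interactions, 0.767, was 0.9 with lists of 1 length, 1 at bins chosen from the IAA list and 0.917 at bins that qualified in both. The contact change, -0.33, was -0.58 with model totals, -0.063 over pairs in both lists, -0.10 at bins chosen from the IAA list and -0.15 at bins that qualified in both. The coverage change reversed from -0.07 to 0.13 without removing the shift of 0.20 over all anchor bins, and was -0.093 with 1 bin per region. Changed hub interactions numbered 44 with model totals and 6 at an adjusted p of 0.01. Apart from these values the causes were not tested.

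The alternatives with 1 bin per region, by coverage and without the chromosome 11 cluster were chosen after seeing the data. No paired analysis was possible because each group has 1 pooled list, which also leaves no replicate to omit. Contacts of a single interaction, with a median of 13, limit what can be seen at one bin pair.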
